A study of Homo sapiens with 7 samples.

Results

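The anaphase-promoting complex (APC/C), its activators, an inhibitor and its ubiquitin enzymes are described here through 10 named genes, all 10 found by symbol among the 60591 rows of the deposited count table. They are the ubiquitin-conjugating enzymes UBE2C and UBE2S, the activators CDC20 and FZR1, the inhibitor FBXO5 and the subunits ANAPC1, ANAPC2, ANAPC4, ANAPC11 and ANAPC15. RNA was sequenced from the human cell line TE11, labelled as esophageal squamous carcinoma cells, after 48 h with 0.07% DMSO as the vehicle (3 libraries) or with 200 µM diclofenac, a nonsteroidal anti-inflammatory drug (4 libraries). All libraries came from this 1 line, in serum-supplemented medium, and whether replicates were grown as separate cultures is not stated in the labels. Of 11 markers of squamous epithelium, 4 (SFN, PERP, CDH1 and EPCAM) were at 1 CPM (counts scaled to library size) or more in every library. KRT4 and KRT6A were at 0 throughout. KRT5, KRT14, TP63 and DSG3 had at most 3 counts in each library, and KRT13 had 1 to 5.

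The APC/C is a large ubiquitin ligase that ends mitosis and keeps cells in G1. It marks securin, cyclins and other proteins for the proteasome by building ubiquitin chains on them. CDC20 is the activator that binds the complex at the metaphase to anaphase transition. FZR1, also called Cdh1 (not the E-cadherin gene CDH1), takes over in late mitosis and G1, and FBXO5, also called Emi1, blocks the complex in S and G2 phase. UBE2C places the first ubiquitins and UBE2S extends the chain.

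Total counts were 19878696 to 26490829 per library. All 10 genes passed the filter on low counts, with at least 243 counts in each library. Changes were tested with edgeR over the 18311 genes that passed, and the threshold for a call was an adjusted p of 0.05. Levels are normalized CPM, scaled by TMM factors, which assume that the bulk of genes did not change. Immune, endothelial and fibroblast markers were low in both groups, at summed levels of 4.23 to 5.93, 0.268 to 1.08 and 14.6 to 20.5 normalized CPM over all libraries, and most of the fibroblast sum was COL1A1 with 255 to 438 counts per library. The summed level of the squamous markers, most of it PERP, was 134 to 142 normalized CPM under vehicle and 154 to 160 under diclofenac. The part of these markers in the results was not tested.

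Of the 10 genes, 9 were lower under diclofenac and none was higher. CDC20 did not pass the test. The falls ran from 0.16 for ANAPC1 to 1.07 for UBE2C on the log2 scale. Among all 18311 tested genes 29.5% were called lower and 30.2% higher. Called falls were more frequent among strongly expressed genes, which most of the 10 are: at 6 to 8 log2 CPM, where 5 of the 10 lie, 57.5% of 3429 genes were called lower. The median log2 fold change was -0.29 for the 10 genes and 0.02 for all tested genes. In 9 of the 10 every diclofenac library lay below every vehicle library, and the background was 29.0% of genes for that pattern and 29.5% for the reverse. In bulk RNA, fewer cells in a phase of the cycle and less RNA per cell cannot be told apart.

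**Figure D1:**
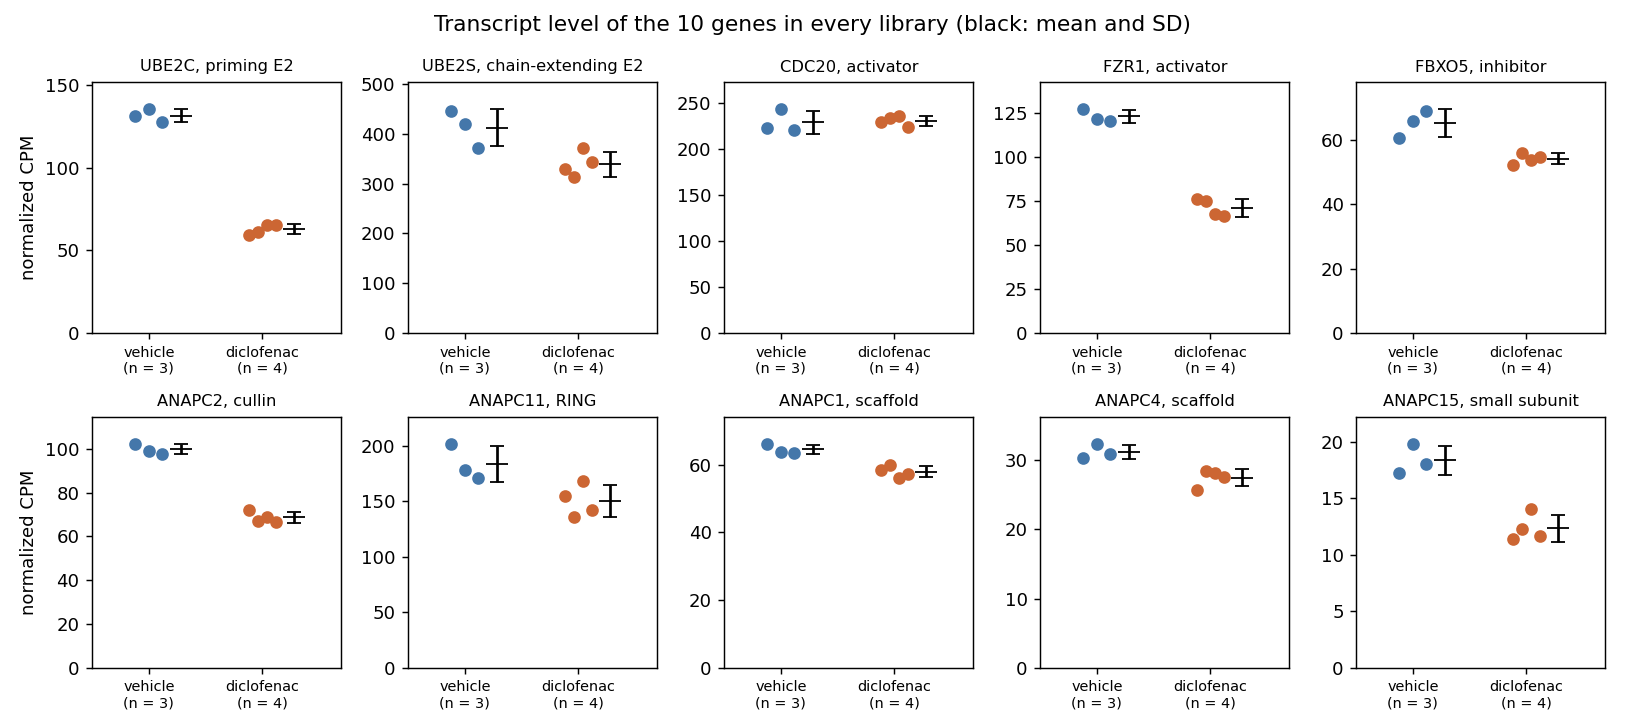
Normalized CPM (vertical axes, each from 0) of the 10 genes in every library, for 3 vehicle and 4 diclofenac libraries, with the mean and SD in black. UBE2C and FZR1 show the widest gaps between groups, and CDC20 lies at 221 to 243 under vehicle and 224 to 236 under diclofenac.

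The scale matters for the smaller falls. With total counts alone as the scale, the median over all genes rose from 0.02 to 0.20 (log2). UBE2C, FZR1, ANAPC2 and ANAPC15 were still called lower on that scale, at -0.89, -0.61, -0.36 and -0.39. UBE2S, FBXO5, ANAPC1, ANAPC4 and ANAPC11 were not, and CDC20 was called higher at 0.19 (edgeR adjusted p = 0.000965). Directions below are therefore relative to the bulk of genes.

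UBE2C, the enzyme that primes substrates with their first ubiquitins, had the largest fall of the 10. It stood at 131, 136 and 128 normalized CPM in vehicle replicates 1 to 3 and at 59.5, 61.0, 65.2 and 65.5 in diclofenac replicates 1 to 4. The groups were far apart, with little spread within either. The mean was 132 ± 3.77 under vehicle and 62.8 ± 3.00 under diclofenac (SD, n = 3 and 4; fold 0.477; log2 fold change -1.07, SE 0.0467, edgeR adjusted p = 8.18e-12). Of all tested genes, 78 (0.426%) had a lower fold change than UBE2C. Its 4 pseudogene rows held 0.174 to 1.5% of its counts per library.

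UBE2S, the enzyme that lengthens the chain, changed less. It stood at 445, 421 and 372 normalized CPM in the vehicle replicates and at 329, 313, 372 and 344 in the diclofenac replicates. The lowest vehicle and the highest diclofenac library, 372.5 and 371.7, nearly touched. The log2 fold change was -0.28 (SE 0.0628, edgeR adjusted p = 0.000864), a fold of 0.822.

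The count of UBE2S is uncertain, because 2 processed pseudogenes hold near copies of its coding sequence. UBE2SP1 differed from the coding sequence at 8 of 666 bases (98.8% identity) and UBE2SP2 at 9 of 496 aligned bases (98.2% identity). Together their rows held counts equal to 76.7 to 85.2% of those of UBE2S. Both rows fell as well, by 0.23 (SE 0.0564) for UBE2SP1 and 0.42 (SE 0.0529) for UBE2SP2 on the log2 scale. With the copies added to the gene the log2 fold change was again -0.28 (SE 0.0580). The stretch below was taken as the 90 bases with the most differences from UBE2SP1, since few positions tell the copies apart. It covers coding bases 474 to 563 of UBE2S (chromosome 19) and the matching 90 bases of UBE2SP1 (chromosome 17), from the GENCODE 29 transcripts, 5′ to 3′, with the 3 differing bases in capitals.
UBE2S: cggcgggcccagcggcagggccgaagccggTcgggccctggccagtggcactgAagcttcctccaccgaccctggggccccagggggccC
UBE2SP1: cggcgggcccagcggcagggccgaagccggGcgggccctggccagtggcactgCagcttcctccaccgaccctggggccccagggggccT

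The activators moved differently. FZR1, the activator of late mitosis and G1, stood at 127, 122 and 121 normalized CPM under vehicle and at 76.0, 75.0, 67.6 and 66.3 under diclofenac. All 4 diclofenac libraries lay far below the vehicle libraries. The mean was 123 ± 3.56 under vehicle and 71.2 ± 4.96 under diclofenac (SD, n = 3 and 4; fold 0.578; log2 fold change -0.79, SE 0.0518, edgeR adjusted p = 8.55e-10), and 2.09% of tested genes had a lower fold change.

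CDC20, the activator of anaphase onset and a target of the spindle checkpoint, stood at 222, 243 and 221 normalized CPM under vehicle and at 229, 234, 236 and 224 under diclofenac. The groups overlapped. The log2 fold change was 0.01 (SE 0.0467, edgeR adjusted p = 0.840). Its pseudogene row CDC20P1 held 1.84 to 2.60% of the counts of CDC20 and did not pass the test either (log2 fold change 0.15, SE 0.127).

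The promoters of both activators are shown because the activators differed in response. They are the RefSeq windows on GRCh38.p14 from 250 bases before to 50 bases after the start, both on the plus strand, for CDC20 at chr1:43358731-43359030 and for the upstream of 2 FZR1 starts at chr19:3506061-3506360. They are written 5′ to 3′, with capitals for TTTGAA (the cell cycle homology region, CHR, bound by the DREAM and B-MYB complexes in cell cycle genes) and for CCAAT (the NF-Y box), both searched on both strands. These 2 motifs did not overlap each other in either window.
CDC20: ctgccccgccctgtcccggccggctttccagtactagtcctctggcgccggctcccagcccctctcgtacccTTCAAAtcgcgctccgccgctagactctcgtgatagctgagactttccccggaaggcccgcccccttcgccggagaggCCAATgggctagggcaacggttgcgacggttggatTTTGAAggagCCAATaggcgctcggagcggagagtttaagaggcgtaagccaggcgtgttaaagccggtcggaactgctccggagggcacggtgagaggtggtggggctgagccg
FZR1: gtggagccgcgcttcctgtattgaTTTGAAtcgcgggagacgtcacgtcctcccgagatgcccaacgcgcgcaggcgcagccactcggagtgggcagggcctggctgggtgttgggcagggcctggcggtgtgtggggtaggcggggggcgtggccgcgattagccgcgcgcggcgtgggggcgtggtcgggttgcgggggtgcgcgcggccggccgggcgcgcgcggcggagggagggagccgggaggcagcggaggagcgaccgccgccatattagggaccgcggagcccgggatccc

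The CDC20 window held TTTGAA on its own strand at position -65 and on the other strand at -178, and CCAAT at -100 and -55, counted from the start to the leftmost base. The FZR1 window held TTTGAA at -226 and no CCAAT, and the window of the other FZR1 start held neither motif. Of all 35116 RefSeq windows of this length, 15.2% held TTTGAA and 34.6% held CCAAT. The table had windows for 9 of the 10 genes, all but UBE2C. Counting any of a gene's starts, 4 of those 9 held TTTGAA (ANAPC1, CDC20, FBXO5 and FZR1) and 5 held CCAAT (ANAPC11, ANAPC15, CDC20, FBXO5 and UBE2S). Over all 27305 genes in the table, counted the same way, 18.2% held TTTGAA and 39.7% held CCAAT. CDC20, which did not pass the test, and FBXO5, which was called lower, each held both motifs. These are matches of letters, and which start the cells used was not measured.

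FBXO5, which inhibits the APC/C before mitosis, stood at 60.4, 65.9 and 69.1 normalized CPM under vehicle and at 52.1, 56.0, 53.9 and 54.6 under diclofenac. The groups did not overlap, but the gap between them was narrow. Group means were 65.1 ± 4.36 and 54.1 ± 1.64 (SD, n = 3 and 4; fold 0.832; log2 fold change -0.27, SE 0.0512, edgeR adjusted p = 0.000239).

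The subunits of the complex fell by different amounts. ANAPC2, the cullin of the catalytic module, stood at 102, 99.1 and 97.8 normalized CPM under vehicle and at 72.1, 67.2, 68.8 and 66.6 under diclofenac. The spread within each group was small beside the difference (log2 fold change -0.54, SE 0.0445, edgeR adjusted p = 1.43e-08). ANAPC11, the RING finger subunit that pairs with ANAPC2 and receives the charged enzyme, stood at 202, 179 and 171 normalized CPM under vehicle and at 155, 135, 168 and 142 under diclofenac. Its groups came close to each other, at 171 and 168 (log2 fold change -0.29, SE 0.0672, edgeR adjusted p = 0.00121). In the annotation 6.13% or less of the exon bases of ANAPC11 are shared with any 1 other gene, among them ALYREF on the opposite strand.

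ANAPC15, a small subunit that promotes release of the mitotic checkpoint complex, stood at 17.3, 19.8 and 18 normalized CPM under vehicle and at 11.4, 12.3, 14 and 11.7 under diclofenac. Its libraries were separate between the groups, and it fell by 0.57 on the log2 scale (SE 0.0801, edgeR adjusted p = 8.69e-06). The annotation places LRTOMT on the opposite strand over 27.1% of its exon bases, and whether the counting used the strand is unknown from the labels. LRTOMT held 572 counts in the 7 libraries against 2448 for ANAPC15.

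Among the 5 subunits described so far and here, ANAPC1 and ANAPC4 had the smallest changes. ANAPC1, the largest subunit, stood at 66.1, 63.8 and 63.5 normalized CPM under vehicle and at 58.3, 59.8, 56.1 and 57.3 under diclofenac (log2 fold change -0.16, SE 0.0449, edgeR adjusted p = 0.00601). ANAPC4, which lies in the platform beside it, stood at 30.3, 32.3 and 30.9 normalized CPM under vehicle and at 25.6, 28.4, 28.2 and 27.6 under diclofenac (log2 fold change -0.18, SE 0.0555, edgeR adjusted p = 0.00917). Both sets of libraries were separate but close. Neither fall passed with upper-quartile factors (adjusted p = 0.198 and 0.158 by edgeR), and with total counts alone the values were 0.0243 and -0.0014. The 6 pseudogene rows of ANAPC1 held 1.65 to 2.89% of its counts.

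**Figure D2:**
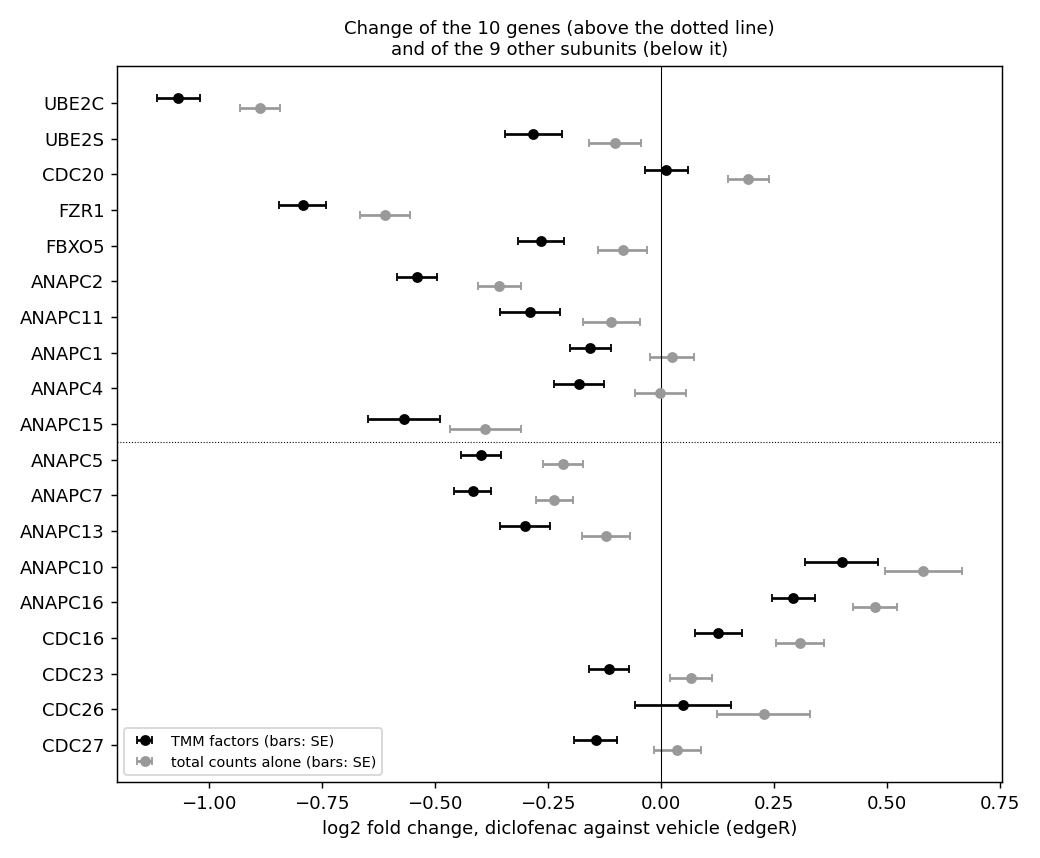
Log2 fold change, diclofenac against vehicle (horizontal axis), of the 10 genes and of the 9 other subunits, with SE bars, for TMM factors (black) and for total counts alone (grey). UBE2C at -1.07 and FZR1 at -0.79 lie farthest to the left on both scales, while ANAPC10 and ANAPC16 lie to the right of 0 on both.

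The other 9 subunits, taken as a whole and not for how they moved, split in direction. With TMM factors 5 (55.6%) were called lower and 3 (33.3%) higher, against 29.5% and 30.2% of all tested genes. At 6 to 8 log2 CPM 57.5% of tested genes were called lower and 15.9% higher. CDC26 was not called (log2 fold change 0.05, SE 0.106), and the median log2 fold change of the 9 was -0.12. The platform subunit ANAPC5 fell from 329 ± 10.8 to 249 ± 6.36 normalized CPM, and ANAPC7, one of the tetratricopeptide repeat subunits of the arc, fell from 135 ± 2.62 to 101 ± 1.22. ANAPC13, a small subunit of that arc, fell by 0.30 (SE 0.0551, edgeR adjusted p = 0.000140) and was just outside the threshold with total counts alone (adjusted p = 0.0519).

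ANAPC10, which forms the receptor for the destruction box together with the activator, rose from 9.17 ± 0.705 to 12.1 ± 0.489 normalized CPM, a log2 fold change of 0.40 (SE 0.0810, edgeR adjusted p = 0.000372), and its pseudogene row held 8.14 to 17.5% of its counts. ANAPC16 rose from 112 ± 6.61 to 137 ± 3.53 normalized CPM. Both were higher under each scaling tried. Of the tetratricopeptide repeat subunits, CDC27 and CDC23 were called lower at -0.14 (SE 0.0481) and -0.12 (SE 0.0435) and CDC16 higher at 0.13 (SE 0.0517). These calls were fragile. CDC27 and CDC23 turned to 0.04 and 0.07 with total counts alone, and the block by replicate number removed all 3 calls. Without vehicle replicate 3, or with that block, 3 of the 9 were called lower. Over all 14 subunits 10 (71.4%) were called lower and 3 (21.4%) higher, against 29.5% and 30.2% of all tested genes.

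Levels of different genes were compared per kilobase of annotated exon. Under vehicle UBE2S was highest at 148 ± 13.3 normalized CPM per kilobase, followed by CDC20 at 112 ± 6.09 and UBE2C at 102 ± 2.93. Their libraries did not overlap in that order, though the level of UBE2S rests on the division of reads with its copies. ANAPC11 came next at 45.6 ± 4.00. FZR1 at 21.2 ± 0.614 could not be separated by its libraries from ANAPC7 at 22.4 ± 0.436, CDC23 at 21.9 ± 0.153 or CDC27 at 20.9 ± 1.00. ANAPC2 stood at 18.3 ± 0.411 and FBXO5 at 17 ± 1.14, and their ranges overlapped. ANAPC15 stood at 6.38 ± 0.454, ANAPC1 at 4.61 ± 0.100 and ANAPC4 at 4.16 ± 0.138, the last 3 in separate ranges with this exon length.

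Under diclofenac CDC20, at 113 ± 2.70 normalized CPM per kilobase, overlapped with UBE2S at 122 ± 8.98, while UBE2C stood at 48.8 ± 2.33. FZR1 moved from rank 10 to rank 14 of 20 genes, the other 9 subunits and UBE2D1 included, at 12.3 ± 0.855. The order depends on the exon length used. With the basic set of transcripts under vehicle, ANAPC5 went from 26.7 to 103 and overlapped with UBE2C at 102, and FZR1 was at rank 13. On that set ANAPC4 at 11.6 lay above ANAPC1 at 7.8 and ANAPC15 at 7.39, and the ranges of ANAPC1 and ANAPC15 overlapped. There ANAPC2 at 37.9 and FBXO5 at 27.3 no longer overlapped.

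Ratios within a library do not depend on how libraries are scaled, so the 4 that pair activators, inhibitor and enzymes were computed from raw counts. They are descriptions with no test. Per count of FZR1, CDC20 had 1.75, 2.00 and 1.83 counts in the vehicle libraries and 3.01, 3.12, 3.49 and 3.37 in the diclofenac libraries. Every diclofenac library was higher, and the mean ratio was 1.75 times that of vehicle. FBXO5 per FZR1 went from 0.530 ± 0.0498 to 0.763 ± 0.0605 (SD, n = 3 and 4), again with no overlap.

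UBE2C per UBE2S was 0.295, 0.322 and 0.344 under vehicle and 0.181, 0.195, 0.175 and 0.190 under diclofenac, lower in all 4 libraries. The size of this ratio rests on the uncertain count of UBE2S, whose copies held counts equal to 76.7 to 85.2% of its own. UBE2D1, which can also prime APC/C substrates, was itself called higher by 0.16 on the log2 scale (SE 0.0552, edgeR adjusted p = 0.0158), with overlapping groups and a call lost without vehicle replicate 1 (adjusted p = 0.130). UBE2C per UBE2D1 went from 2.93 ± 0.223 to 1.24 ± 0.0528 (SD, n = 3 and 4).

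**Figure D3:**
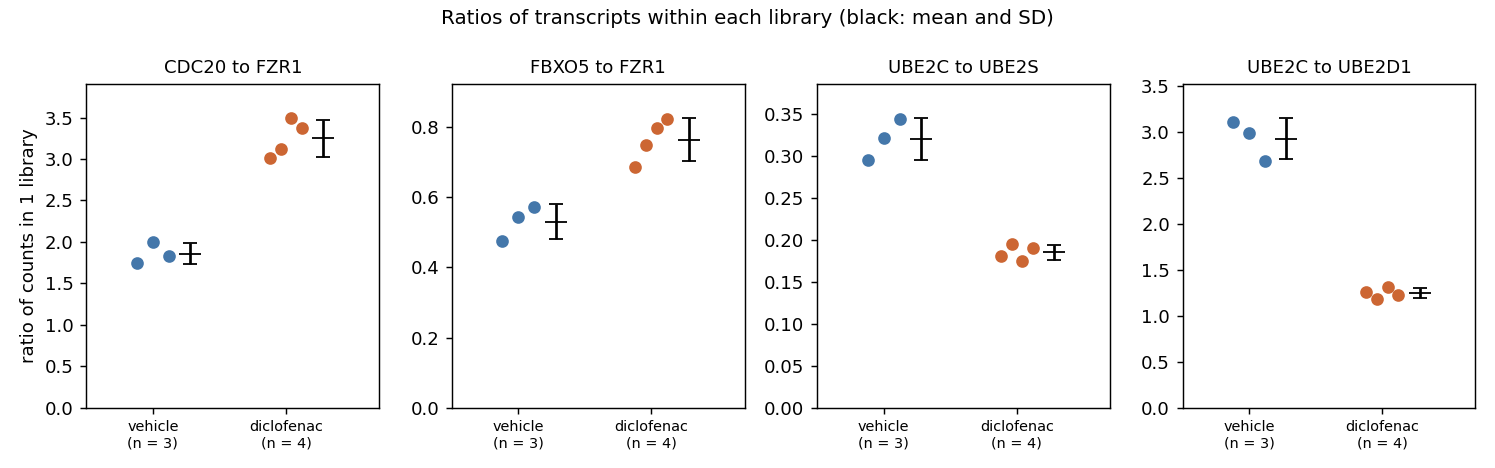
Ratios of raw counts of 2 transcripts in the same library (vertical axes, each from 0), for 3 vehicle and 4 diclofenac libraries, with the mean and SD in black. CDC20 and FBXO5 per FZR1 are higher in every diclofenac library, and UBE2C per UBE2S and per UBE2D1 lower.

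Beyond FBXO5, the activity of the complex is held back mainly by the spindle checkpoint, which keeps CDC20 inactive until chromosomes are attached. The list of 9 checkpoint and related genes also holds TRIP13 and MAD2L1BP, which take the checkpoint complex apart and so act against it. Of these 9, 8 were tested, 7 (87.5%) were called lower and none higher, with a median log2 fold change of -0.24. Among all tested genes 29.5% were called lower, and at 6 to 8 log2 CPM 57.5%. With total counts alone 3 of the 8 were called lower. The checkpoint protein BUB3 fell from 349 ± 3.71 to 246 ± 6.34 normalized CPM, by 0.51 on the log2 scale (SE 0.0428). The ATPase TRIP13 fell by 0.44 (SE 0.0421) and the kinase BUB1 by 0.31 (SE 0.0457) on the log2 scale, each with an edgeR adjusted p of 1.5e-05 or lower. MAD1L1, at only 9 to 16 counts per library, did not pass (log2 fold change 0.24, SE 0.310), which leaves a change undecided. FBXO43, the relative of FBXO5, had too few counts to be tested.

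Of 34 substrates of the complex, 24 (70.6%) were called lower and 2 (5.88%) higher, with a median log2 fold change of -0.23. Among all tested genes 29.5% were called lower and 30.2% higher, and at 6 to 8 log2 CPM 57.5% were called lower. With upper-quartile factors 6 substrates were called higher, and with total counts alone 13 were called lower and 9 higher. The largest falls were those of the thymidine kinase TK1 (268 ± 3.77 to 136 ± 6.96 normalized CPM), the ribonucleotide reductase subunit RRM2 (256 ± 5.13 to 141 ± 5.98) and CDCA3 (64.9 ± 2.01 to 36.6 ± 2.53). The kinase AURKB fell by 0.54 (SE 0.0561), cyclin A (CCNA2) by 0.51 (SE 0.0425) and GTSE1 by 0.45 (SE 0.0409) on the log2 scale, with an edgeR adjusted p of 2.33e-07 or lower for each. All 6 were also lower with total counts alone. The 2 that rose, named after their values were seen, were the hyaluronan receptor HMMR, a spindle protein, at 0.34 (SE 0.0464) and the transcription factor E2F3 at 0.18 (SE 0.0455). Securin (PTTG1), the substrate whose loss frees separase, did not pass (log2 fold change 0.10, SE 0.0793), and cyclin B (CCNB1) fell by 0.25 (SE 0.0467); both were also named after their values were seen.

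Other conjugating enzymes of the same family give a comparison for UBE2C and UBE2S. Of 32, 12 (37.5%) were called lower and 5 (15.6%) higher, with a median log2 fold change of -0.05. With total counts alone 6 of them were called lower and 14 higher. With TMM factors 29.5% of all tested genes were called lower and 30.2% higher, and 57.5% of those at 6 to 8 log2 CPM were called lower. UBE2J2 of the endoplasmic reticulum fell by 0.45 (SE 0.0510) and UBE2L3 by 0.42 (SE 0.0543), while UBE2L6, which conjugates the ubiquitin-like ISG15, rose by 0.76 (SE 0.0952), from 8.88 ± 0.862 to 14.9 ± 1.6 normalized CPM. The number called higher was 3 without vehicle replicate 1. Whether UBE2C differs from the family was not tested.

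**Figure D4:**
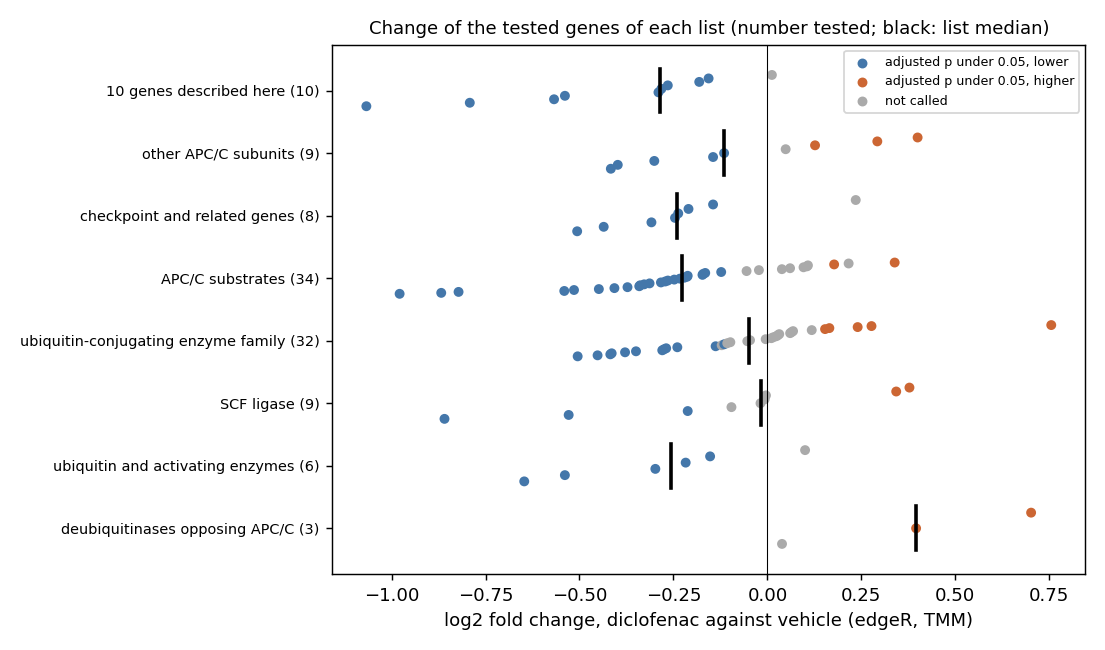
Log2 fold change, diclofenac against vehicle (horizontal axis), of each tested gene of 8 lists, coloured by call, with list medians in black. The 10 genes described here have their median at -0.29, and the conjugating enzyme family spreads on both sides of 0 around -0.05.

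Among genes that act upstream or in opposition, 5 of 6 ubiquitin genes and activating enzymes (83.3%) were called lower and none higher. With upper-quartile factors or with total counts alone, 2 of the 6 were called lower and 1 higher. With TMM factors 29.5% of all tested genes were called lower, and 74.4% of those at 8 log2 CPM or more. UBA1, the main activating enzyme, fell from 1049 ± 42.9 to 670 ± 5.36 normalized CPM. Without diclofenac replicate 2, 3 of the 6 were called lower. Of 3 deubiquitinases that counter the complex, USP44, which protects the spindle checkpoint, rose from 9.83 ± 0.630 to 16.0 ± 0.756 and OTUD7B, which removes the chain type that UBE2S builds, from 55.6 ± 3.17 to 73.1 ± 3.52 normalized CPM, and USP37 did not pass. Of 9 genes of the SCF, the other main ligase of the cell cycle, 3 (33.3%) were called lower and 2 (22.2%) higher. Among all tested genes these shares were 29.5% and 30.2%. The SCF F-box subunit CCNF fell from 112 ± 4.20 to 61.9 ± 0.473 normalized CPM. The RING subunit RBX1 fell by 0.53 (SE 0.0488) on the log2 scale. The 2 that rose, named after their values were seen, were FBXW11 at 0.38 (SE 0.0464) and FBXW7 at 0.34 (SE 0.0607).

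The transcripts closest in pattern to UBE2C over the 7 libraries were MARCKSL1, CA2 and SRM, with root mean square differences of 0.0357, 0.0428 and 0.0541 between mean-centred log2 values, out of 6757 genes at 5 log2 CPM or more. Their log2 fold changes were -1.01 (SE 0.0490), -1.05 (SE 0.0467) and -1.16 (SE 0.0422). Those closest to CDC20 were ADD1, CTSB and DHRS7B at 0.0225, 0.0233 and 0.0268, and none of these 3 passed the test. The genes alike to UBE2C and to CDC20 were picked by their values in the same libraries. Their changes therefore follow from the choice and are no separate result.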

How the data were processed

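RNA was measured in 3 vehicle and 4 diclofenac libraries, made with a strand-keeping kit per the labels' protocols. The authors deposited raw counts per gene, whole numbers with no normalization. The submitters' processing notes name DESeq and the mouse build GRCm38, although the rows carry human symbols; the aligner, the counter and the annotation are not given in the sources used here. Genes were filtered with filterByExpr (minimum count 10, minimum total 15), scaled by TMM and compared by edgeR's quasi-likelihood test (edgeR 4.0.16, R 4.3.3) over group alone, with Benjamini-Hochberg adjustment over all 18311 tested genes. SE were derived from the F statistic. Alternatives used other scalings, the DESeq2 1.42.0 Wald test, limma 3.58.1 with trend (prior count 2), other filters, each library left out, a replicate block, and pseudogene rows added to their gene. The steps were tested on simulated counts in which few genes changed, equally up and down. Such data cannot test the assumption behind the TMM factors, since far more genes were called here. The 10 genes and the lists were chosen with earlier results of these data known. Besides the 10, the text names the 9 other subunits, UBE2D1, the called genes of each list with the largest change (6 substrates, 4 conjugating enzymes, 3 checkpoint and related genes and 2 of each other list) and 3 genes alike in pattern to each of UBE2C and CDC20. Some genes that this rule names are not reported here. Exon lengths and copies came from GENCODE 29 (union of exons; local alignment with Biopython 1.88), promoters from RefSeq. Replicates varied more than counting alone gives (chi-square divided by its degrees of freedom, 2.17 to 7.40, minimum 20 counts per gene), so none was treated as a repeat deposit. P-values measure the spread between these libraries, which may be technical. 1 count was worth 0.0377 to 0.0503 CPM.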

Additional observations from a re-analysis of the deposited data

Results flagged for a closer look

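Of 43 sets of 4 diclofenac values checked, 2 had 1 library far from the other 3, where chance flags about 5% of sets. ANAPC16 stood at 132 normalized CPM in diclofenac replicate 3 and at 138 to 139 in the others. UBA1 stood at 678 normalized CPM in diclofenac replicate 3 and at 666 to 668 in the others.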

How the results depend on the processing

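Over all results and settings, 524 values kept their call or its absence, or stayed within 1.5 times a count. In the rest, 25 counts moved further, 29 calls were lost, 1 was gained and 3 directions of called genes turned. CDC20 and CDC26, which were not called, crossed 0 in some settings, down to -0.0203 and -0.055, and these values are within the 524. The cause was not tested. No call among the 10 genes changed when any 1 library was left out. With total counts alone, 3039 genes were called lower and 8615 higher, of the 10 genes 4 lower and 1 higher, of the other subunits 2 lower, of the checkpoint and related genes 3 lower, of the substrates 13 lower and 9 higher, of the conjugating enzymes 6 lower and 14 higher, of the SCF genes 5 higher, and of the ubiquitin genes 2 lower and 1 higher. ANAPC1, CDC27 and CDC23 turned to 0.0243, 0.0362 and 0.0657 there. Upper-quartile factors gave 3 other subunits lower, 6 substrates and 10 conjugating enzymes higher, and 2 ubiquitin genes lower and 1 higher. Of all calls 49.4% were lower with TMM, 37.4% with upper-quartile factors and 26.1% with total counts. With no filter, 1 checkpoint or related gene was called higher.

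Leaving out 1 library at a time gave 3 to 5 other subunits lower, 0 to 1 checkpoint and related genes higher, 3 to 6 conjugating enzymes higher, and 3 to 5 ubiquitin genes lower and 0 to 1 higher.

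No pairing by replicate number was seen in the values. Same-numbered libraries had correlations of 0.000867, 0.0216 and -0.0474, and not every library correlated best with its own number. Such correlations cannot settle whether same-numbered libraries were grown or prepared together. A replicate block over replicates 1 to 3, which drops diclofenac replicate 4, called 4940 genes lower and 4891 higher, 9 of the 10 genes lower and 3 of the other subunits lower.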
